A study of Mus musculus with 148 samples.

Results

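The imprinting marks of 4 stretches of mouse chromosome 7, at *Peg3*, *Snrpn*, *Inpp5f* and *H19*, were described here over the length, age and diet series of small intestinal enterocytes. Their members were every CpG position, taken on each strand separately, on chromosome 7 (GRCm38), outside an interval farther along the chromosome that is not analysed here, that was read more than 30 times in at least 50% of the 148 samples. This left 171 of 526 chromosome 7 positions, out of 1549 positions that passed the same depth rule in the whole series. Positions less than 50 kb apart were joined, which gave 4 of the 22 windows of the series, and each window was named after the nearest imprinted gene.

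DNA came from villus enterocytes of inbred C57BL/6NCrl mice, was treated with bisulfite, and was captured with padlock probes, which copy the stretch between a pair of annealing arms on 1 strand. The small intestine had been cut into 9 segments, numbered from the proximal duodenum (1) to the distal ileum (9). The 71 adult samples (P60) held 8 per segment and 7 in segment 6. The 10 infant samples (P6) held 3, 3 and 4 in segments 1, 3 and 7. At P90 there were 35 samples from mice that had drunk lactose-containing milk with added sucrose for 60 days (LAC+, 7 in each of segments 1, 3, 4, 7 and 8) and 32 from mice given lactose-free milk instead (lac-, 6, 6, 7, 6 and 7 in the same segments). The labels do not say which segments came from the same mouse, and the running numbers of the deposited P60 files fall in 8 runs of 9, so samples may share an animal. The p-values treat samples as separate and may be too small, or too large where segments of the same mouse are compared. The deposited name of P60 segment 1 replicate 4 marks it as a repeat of replicate 1, and their counts were the closest of all 449 replicate pairs but differed by more than read sampling (3.08 times the chi-square of sampling alone, next pair 3.24), so both were kept, and averaging them changed no call over windows. Bisulfite does not separate 5-methylcytosine from 5-hydroxymethylcytosine, so levels are given as percent modified, modified reads over all reads at a position.

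Imprinted genes are expressed from a single parental copy, and the choice is set by stretches of DNA that carry methylation from only the egg or only the sperm. *Peg3*, which encodes a zinc finger protein, *Snrpn*, which encodes a splicing protein and shares its start with *Snurf*, and a short variant of the phosphatase gene *Inpp5f* are made from the paternal copy and carry the mark on the maternal copy. *H19*, a long non-coding RNA made from the maternal copy, lies beside a control region that is methylated on the paternal copy and binds the insulator protein CTCF when unmethylated. In a tissue that keeps such a mark on a single parental copy, reads of both copies together are near the middle of the scale. These mice were inbred and the reads were not assigned to parents, so 1 fully modified copy and partial modification of both copies cannot be told apart. Likewise, a change within enterocytes and a change in the mixture of cells cannot be told apart.

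The captured stretches that the results turn on are printed below 5′ to 3′ on the strand the probe read (GRCm38), arms included, in lower case with each CpG in capitals. The first pair is from *Peg3* and shows a sparse and a dense stretch within the gene. The second pair is from *Snrpn* and shows a stretch that varied along the gut and one where no position passed that test. The *Inpp5f* stretch holds both members of its window. The last 4 are from *H19*: a pair that overlaps on opposite strands and read differently, the stretch with the lowest level, and a stretch next to it without a CpG in an arm.
Peg3 intron, 2 CpGs, chr7:6728048-6728244 (-): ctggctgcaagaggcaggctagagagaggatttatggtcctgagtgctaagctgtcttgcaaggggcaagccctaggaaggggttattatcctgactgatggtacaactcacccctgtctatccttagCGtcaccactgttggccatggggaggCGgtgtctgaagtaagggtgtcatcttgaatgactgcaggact
Peg3 intron, 7 CpGs, chr7:6729183-6729377 (-): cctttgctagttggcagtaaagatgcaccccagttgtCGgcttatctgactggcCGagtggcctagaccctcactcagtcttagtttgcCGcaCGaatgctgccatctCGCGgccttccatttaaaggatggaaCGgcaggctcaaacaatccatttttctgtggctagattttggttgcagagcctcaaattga
Snrpn intron, varied along the gut, chr7:60003142-60003336 (+): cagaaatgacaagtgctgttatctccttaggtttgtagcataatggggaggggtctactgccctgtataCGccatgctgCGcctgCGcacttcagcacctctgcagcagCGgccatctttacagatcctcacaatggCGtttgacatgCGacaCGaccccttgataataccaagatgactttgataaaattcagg
Snrpn intron, near the Snurf start, chr7:60004271-60004470 (+): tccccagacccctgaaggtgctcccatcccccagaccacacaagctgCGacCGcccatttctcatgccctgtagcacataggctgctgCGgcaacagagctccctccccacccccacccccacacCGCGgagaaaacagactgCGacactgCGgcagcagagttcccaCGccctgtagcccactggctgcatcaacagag
Inpp5f intron, chr7:128687719-128687917 (+): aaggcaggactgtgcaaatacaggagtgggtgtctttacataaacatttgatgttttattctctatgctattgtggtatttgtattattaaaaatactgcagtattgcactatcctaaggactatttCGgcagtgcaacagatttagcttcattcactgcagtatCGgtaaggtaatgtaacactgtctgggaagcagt
H19 upstream, plus strand, chr7:142580228-142580425 (+): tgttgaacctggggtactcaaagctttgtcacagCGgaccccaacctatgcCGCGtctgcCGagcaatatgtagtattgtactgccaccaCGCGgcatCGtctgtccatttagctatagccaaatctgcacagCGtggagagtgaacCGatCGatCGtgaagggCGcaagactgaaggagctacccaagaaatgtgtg
H19 upstream, minus strand, CpG in an arm, chr7:142580336-142580535 (-): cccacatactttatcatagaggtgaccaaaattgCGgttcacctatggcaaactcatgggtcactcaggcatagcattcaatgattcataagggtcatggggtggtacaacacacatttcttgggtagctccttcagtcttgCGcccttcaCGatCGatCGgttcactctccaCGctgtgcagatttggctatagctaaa
H19 upstream, lowest, CpG in an arm, chr7:142581629-142581828 (-): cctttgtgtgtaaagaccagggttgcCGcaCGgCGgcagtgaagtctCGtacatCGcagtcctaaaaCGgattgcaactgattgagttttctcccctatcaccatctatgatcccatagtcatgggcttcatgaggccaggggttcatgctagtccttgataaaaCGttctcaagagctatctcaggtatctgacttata
H19 upstream, farther, chr7:142581939-142582132 (-): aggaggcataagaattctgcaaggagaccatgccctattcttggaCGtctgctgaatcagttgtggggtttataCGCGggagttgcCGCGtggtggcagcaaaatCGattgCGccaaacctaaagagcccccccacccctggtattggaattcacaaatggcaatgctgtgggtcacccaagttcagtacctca

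The *Peg3* window (chr7:6727077-6733321) held 70 positions, 35 on each strand, on 22 probes, except that 1 position (6731655) lay outside every probe. *Peg3* lies on the minus strand at 6703892 to 6730431, and 32 positions fell in its introns, 4 between genes, and the other 34 within *Usp29*, the neighbouring gene on the opposite strand. The *Snrpn* window (chr7:60002806-60004650) held 35 positions on 8 probes, all in introns shared by *Snrpn*, *Snurf* and Gm38393. The *Inpp5f* window (chr7:128687846-128687884) held 2 positions on 1 probe in an intron. The *H19* window (chr7:142580084-142582260) held 64 positions on 10 probes, all between genes and starting 1941 bases upstream of *H19*. The median depth per position and sample was 1348 reads in *Peg3*, 687 in *Snrpn*, 7752 in *Inpp5f* and 525.5 in *H19*. All 171 members passed the depth filter by definition, 148 of them in every sample. The members closest to the limit were 5 *H19* positions (142581387 to 142581456) that passed in 86 samples at a median of 34.5 to 35 reads, and the positions just outside it were 3 in *Peg3* that passed in 45 samples. The level of a window in a sample was the mean over positions read more than 30 times in every sample, 62 in *Peg3*, 29 in *Snrpn*, 2 in *Inpp5f* and 55 in *H19*.

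Sequence motifs known at such regions were counted on both strands of each window. TGCCGC, the hexamer that the imprint-keeping protein ZFP57 binds when methylated, occurred 8 times in *Peg3*, 5 times in *Snrpn* and 6 times in *H19*. As many copies were found in 0.0264%, 0.026% and 0.0154% of all chromosome 7 stretches of the same lengths. Those stretches were not matched to the windows for CpG content, and the hexamer itself holds a CpG. GCCATNTT, the core bound by YY1, occurred 12 times in *Peg3*, a number matched by 0.0176% of stretches, once in *Snrpn*, where 35.2% of stretches hold it, and not in *H19*. GGNGGCAG, the end of the CTCF core, occurred 5 times in *H19* (0.273% of stretches hold as many), once in *Peg3*, where 72.6% of stretches hold it, and not in *Snrpn*. None of the 3 motifs was in the 39 bases between the ends of the *Inpp5f* window. These counts describe letters only and say nothing of binding.

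In 3 of the windows the mean lay near the middle of the scale over all 148 samples. The mean was 47.7% ± 1.88 in *Peg3*, 52.02% ± 3.89 in *Snrpn* and 51.8% ± 1.17 in *Inpp5f* (SD over samples). *H19* was lower, at 37.3% ± 2.14, a mean that includes positions inside probe arms. Across the members, 160 of 171 averaged between 20% and 80%. Cytosines outside CpGs, which measure incomplete conversion and any true non-CpG modification, averaged 0.331% to 0.441% in the 4 windows. The window levels were far above these means, but the lowest *H19* position, inside a probe arm, was at only 1.43%. A *Peg3* probe with high levels outside CpGs, described below, is not in these means. In *Inpp5f* the positions at 128687846 and 128687884 averaged 54.9% ± 1.30 and 48.6% ± 1.18. The spread between P60 samples of a segment was wider than read sampling alone gives, with a median variance 3.44 to 4.07 times binomial in the 4 windows.

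**Figure D1:**
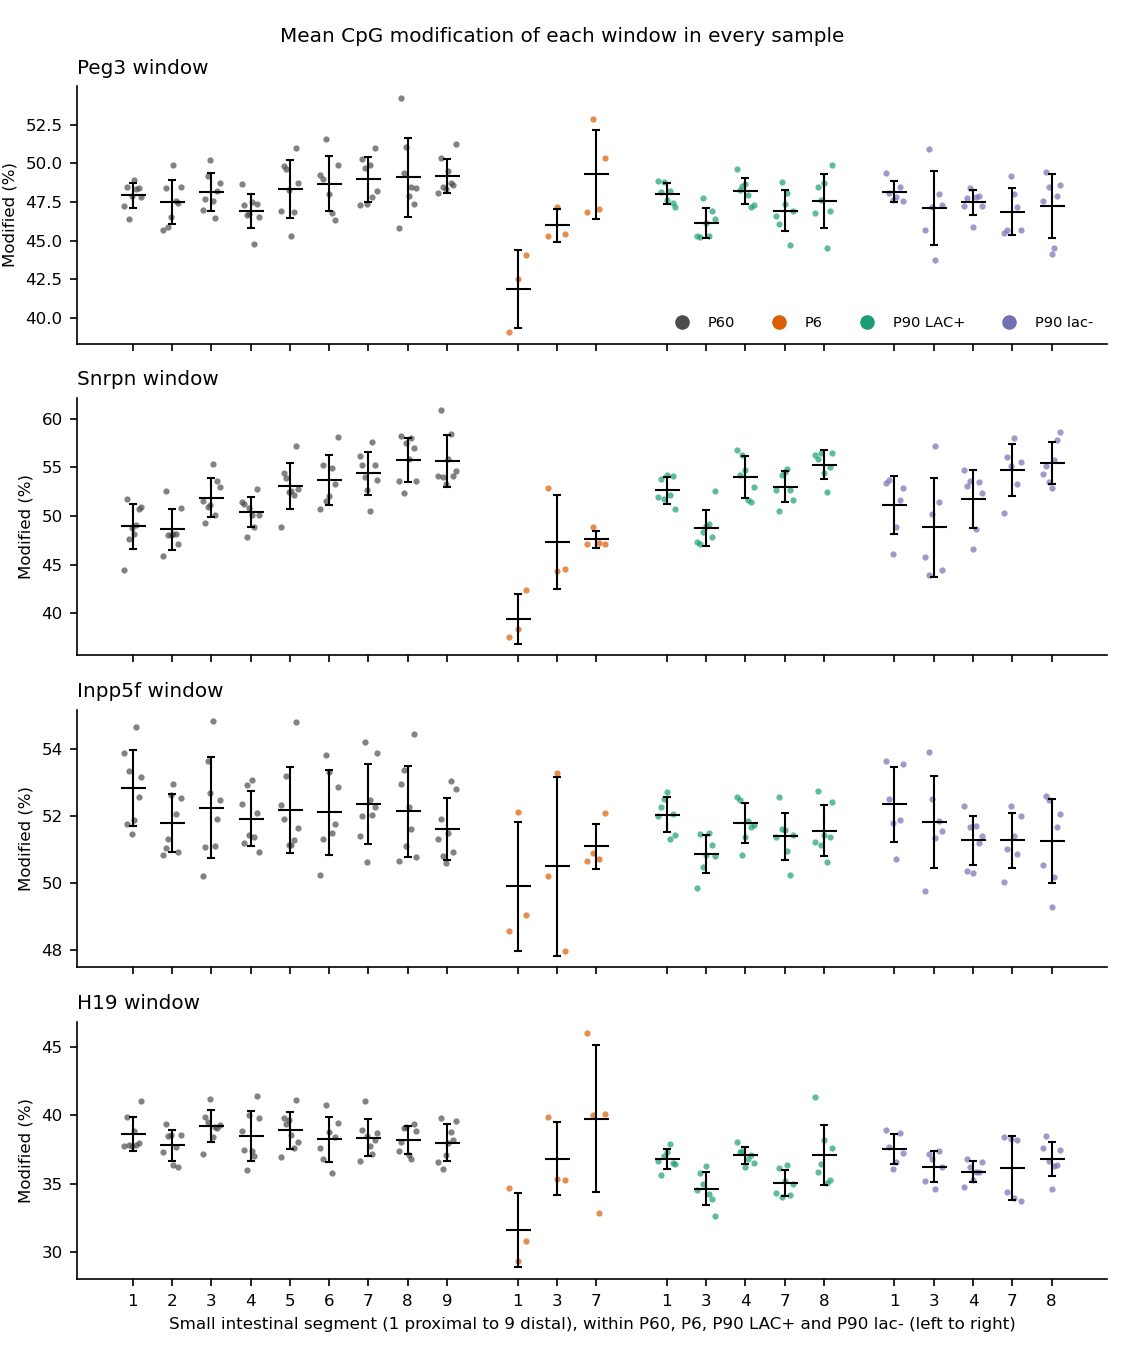
Percent modified of each window (y axis) in every sample, by segment within P60, P6, P90 LAC+ and P90 lac- (x axis). Points are samples and bars are the mean and SD of each group. *Snrpn* rises from 48.6% in P60 segment 2 to 55.8% in segment 8, and the P6 segment 1 samples of *Peg3*, *Snrpn* and *H19* lie below all P60 segment 1 samples. The y axes do not start at 0.

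Levels differed between probes of a window far more than between neighbouring CpGs of a probe. Differences between probes held 97.2% of the variance of the position means in *H19*, 89.3% in *Snrpn* and 76.4% in *Peg3*. In *Peg3* the lowest position was 6730524 on the minus strand, just upstream of the gene's 5′ end, at 37.97% ± 7.75, and the highest was 6733192 on the minus strand, within a *Usp29* exon, at 82.7% ± 2.81. In *Snrpn* the lowest was 60004439 on the plus strand at 33.3% ± 7.00 and the highest was 60003227 on the plus strand at 79.6% ± 7.66.

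*H19* showed the widest range, from 1.43% ± 0.698 at 142581802 to 79.7% ± 9.79 at 142581387, both on the minus strand. The first of these lies inside a probe arm, as did 3 more members, all in *H19*. A probe copies only the stretch between its arms, so a level inside an arm need not show the state of the sample. Between the arms, the lowest position averaged 6.52%. Arm positions read in every sample stayed in the window level. The highest was read more than 30 times in only 86 samples. The 4 probes with a CpG in an arm averaged 6.79%, 23.1%, 37.9% and 38.4%, against 38.7% to 70.6% in the other 6, whose median was 46.7%. Without those 4 probes the window averaged 48.1% ± 2.00 in P60 in place of 38.4% ± 1.34. An arm is made for 1 of the 2 possible states of the CpG it covers, and the effect of that on capture was not tested.

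The strands could be compared where probes on both overlapped. In *H19*, 5 CpGs were 21.1 to 22.1 percentage points higher on the plus strand, in 147 of 148 samples each. The difference was widest at 142580375, with 45.1% on the plus strand and 23.04% at the paired position of the minus strand, and the minus-strand probe is the one printed above with a CpG in an arm. In *Snrpn*, 3 CpGs were 6.77 to 7.10 points higher on the plus strand, the most at 60004556 (52.3% against 45.2%). In *Peg3*, 8 CpGs differed by -3.23 to 6.23 points, the most at 6732688 (63.8% on the plus strand against 57.5%). The strands were read by different probes, and strand and probe cannot be told apart here.

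**Figure D2:**
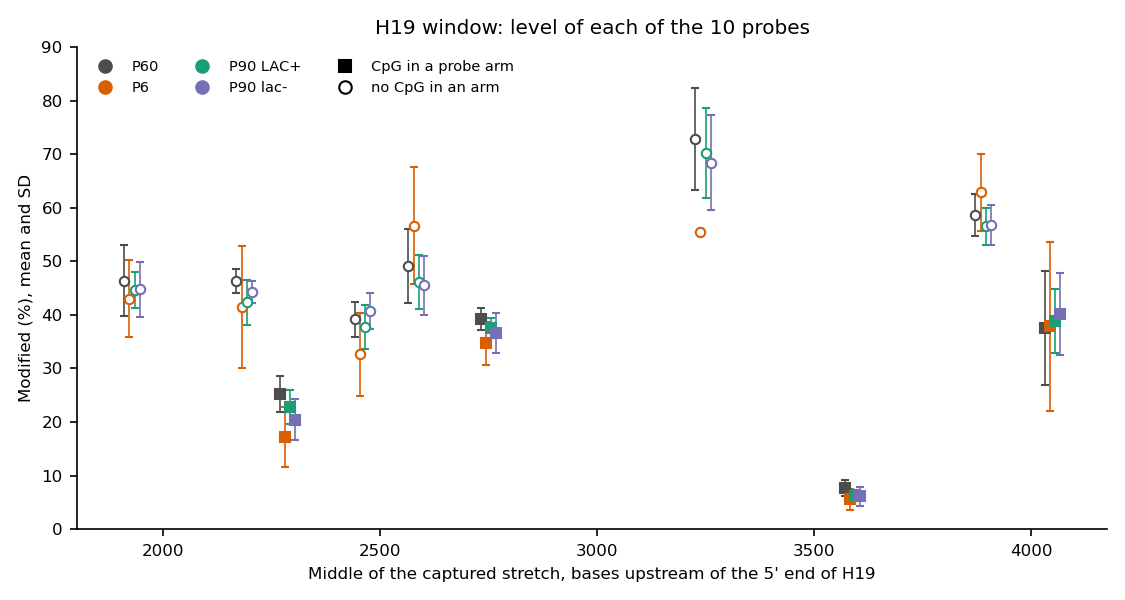
Mean percent modified and SD over samples (y axis) of the 10 *H19* probes at the distance of the captured stretch from the 5′ end of *H19* (x axis, bases upstream), for P60, P6, P90 LAC+ and P90 lac-. Filled squares are probes with a CpG in an arm, 6.79% to 38.4% on average, and open circles are the others. One P6 point without a bar rests on 1 sample.

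Along the adult small intestine, 1 of the 4 windows varied. *Snrpn* was lowest in segment 2, where the 8 samples ran from 45.9% to 52.6% with a median of 48.1%, and highest in segment 8, from 52.4% to 58.2% with a median of 56.4%. The ranges of these groups overlapped only slightly. The means of segments 1 to 9 were 48.9%, 48.6%, 51.9%, 50.4%, 53.05%, 53.7%, 54.4%, 55.8% and 55.7%, a rise from the duodenum to the ileum, with a median SD within a segment of 2.27. The segments, whose means ranged over 7.15 points, differed in a permutation test of the F statistic (100000 resamples, p = 1e-05, the smallest they can give, adjusted over the 22 windows p = 3.67e-05). Segment 9 was 3.80 points above segment 3 (exact permutation test, two-sided, p = 0.00435, adjusted p = 0.0191). That call was lost when samples were blocked by the runs of file numbers (3.80 points, adjusted exact permutation p = 0.0573) and with a minimum of more than 10 reads (2.98 points, 0.0507). The ranges over segments of the other windows were 2.23 points in *Peg3* (adjusted p = 0.148 in the permutation test), 1.23 in *Inpp5f* (0.802) and 1.39 in *H19* (0.773). Of all 22 windows, 36.4% passed the segment test and 31.8% the test of segment 9 against 3.

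By the lane numbers in the deposited names, P60 libraries were spread over lanes 5, 6 and 7, and 1 was on lane 4. Within lanes 5, 6 and 7 the *Snrpn* range was 7.96, 7.74 and 7.96 points, with adjusted permutation p of 0.0293, 0.116 and 0.0554. Segment 9 was above segment 3 in each lane, by 3.88, 3.78 and 2.83 points. In *Peg3* the segment test depended on how the window was averaged: with pooled reads the range was 2.22 points (adjusted permutation p = 0.000534) and with each probe weighted equally 3.15 points (0.000251).

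Tests of single positions placed these differences at 1 end of each window. Of the 171 members, 19 passed a quasi-binomial F test over the 9 segments (Bonferroni over all 22270 cytosines tested, under 0.01), against 14.5% of all CpG positions in the series. Of the 19, 10 were in *Snrpn* and 9 in *Peg3*, none in *Inpp5f* or *H19*, where 0 of 2 and 5 of 64 had an unadjusted p under 0.05. With limma on log odds 14 members passed. All 19 were higher in segment 9 than in segment 3, by 8.42 to 22.1 points in *Snrpn* and by 4.35 to 12.8 points in *Peg3*.

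In *Snrpn*, the 10 positions were all those between 60002806 and 60003295, which is 1754 to 2243 bases downstream of the 5′ end of *Snurf*, on 2 probes. None of the 25 positions nearer that end passed. The position with the lowest p was 60002806 on the plus strand. Its means in P60 segments 1 to 9 were 48.6%, 48.5%, 52.9%, 55.1%, 59.5%, 63.3%, 68.7%, 70.3% and 75.0%. The 8 samples of segment 2 ran from 42.1% to 53.3% and those of segment 9 from 70.02% to 81.4%, with no overlap (adjusted quasi-binomial p = 1.21e-22). The same position at P6 averaged 51.2%, 53.7% and 67.7% in segments 1, 3 and 7. At P90 it averaged 56.04%, 53.7%, 61.5%, 65.8% and 72.5% in LAC+ segments 1, 3, 4, 7 and 8, and 55.1%, 53.1%, 59.5%, 67.4% and 70.6% in lac-. In each group the distal segment was the highest.

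The position at 60003227, on the stretch printed above, rose from 72.02% ± 5.00 in segment 2 to 87.6% ± 1.61 in segment 9 of P60. Averaged over the 10 positions, P60 levels went from 57.5% ± 3.57 in segment 2 to 75.3% ± 1.79 in segment 9. The 8 samples lay between 49.9% and 60.8% in the former and between 73.0% and 78.4% in the latter. The 19 other positions read in every sample stayed between 43.6% and 47.5% in all 9 segments. These positions were grouped by the test itself, so the contrast between them is a description.

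In *Peg3*, the 9 positions lay between 6732373 and 6733321, 1942 to 2890 bases upstream of the 5′ end of *Peg3*, on 5 probes within *Usp29*. They were 9 of the 10 members there, and none of the other 60 passed. The lowest p was at 6732763 on the minus strand, in a *Usp29* exon, read at a median depth of 14282.5. Its means in P60 segments 1 to 9 were 61.1%, 61.4%, 61.5%, 62.7%, 65.2%, 66.4%, 69.2%, 72.04% and 74.3%. The 8 samples of segment 1 ran from 59.3% to 62.6% and those of segment 9 from 73.5% to 75.9%, with no overlap (adjusted quasi-binomial p = 4.13e-24). At P6 it averaged 62.4%, 64.9% and 71.2% in segments 1, 3 and 7. In LAC+ it averaged 63.1% in segment 1 and 72.1% in segment 8, and in lac- 61.8% and 71.95%. The position with the highest level in the window, 6733192, was also among the 9 and went from 79.03% ± 1.78 in segment 1 to 85.7% ± 1.00 in segment 9.

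Of the 9 positions, 7 were read in every sample. Their mean went from 55.7% ± 2.01 in P60 segment 4 to 64.7% ± 0.795 in segment 9, while the 55 other positions stayed between 45.8% and 47.5%. As in *Snrpn*, the positions were grouped by the test itself, so this contrast is a description. The other 2 of the 9, 6732604 and 6732688 on the plus strand, share a probe on which 31 of 40 cytosines outside CpGs were over 5% on average. The median over those cytosines had a group median of 0.875% in P60 and 0.249% in P6, but 9.97% in LAC+ and 12.6% in lac- samples. The part of this in the levels of these 2 CpGs was not tested. The probe did not enter the level of the window, and 6732689, the same CpG as 6732688 on the other strand and another probe, passed too, with 52.8% in segment 2 and 64.2% in segment 9 of P60.

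**Figure D3:**
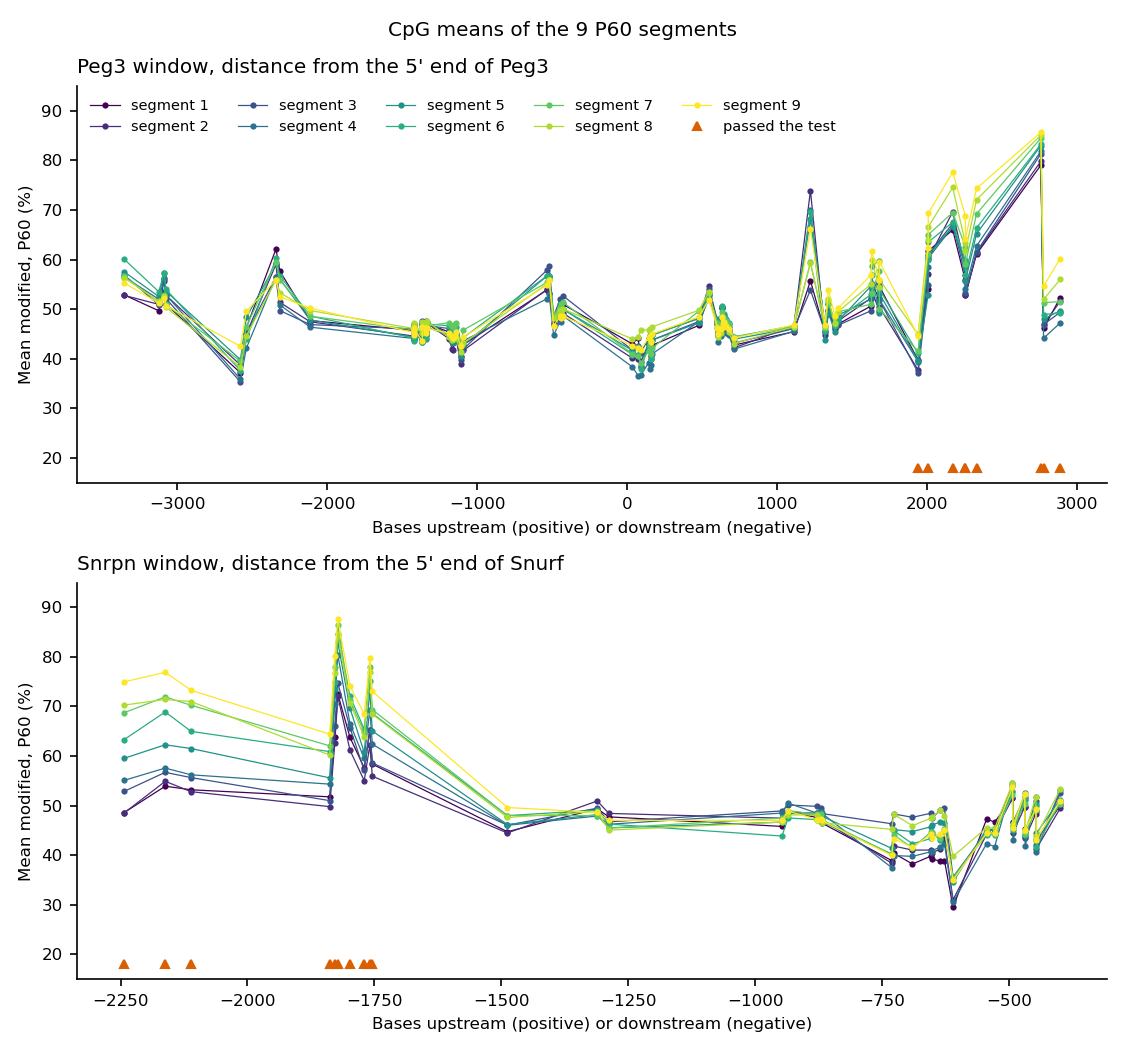
Mean percent modified of each CpG position in P60 (y axis) against its distance from the 5′ end of *Peg3* or *Snurf* (x axis, bases, upstream positive), with a line for each segment from 1 (dark) to 9 (yellow). Triangles mark the 19 positions that passed the test over segments. The lines part from 1942 bases upstream of *Peg3* and from 1754 bases downstream of the *Snurf* start, and lie closer elsewhere. The exception is 1 *Peg3* position outside every probe (6731655, with a median depth of 48 reads).

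The gradient was tested again in the P90 mice, within each diet. The *Snrpn* window varied over segments 1, 3, 4, 7 and 8 in LAC+ by 6.50 points (permutation test, p = 1e-05, adjusted p = 5.5e-05) and in lac- by 6.57 points (p = 0.00867, adjusted p = 0.0238). Its lowest mean was in segment 3 in both diets, 48.8% ± 1.83 in LAC+ and 48.8% ± 5.10 in lac-, and its highest in segment 8, 55.3% ± 1.46 and 55.4% ± 2.14. *H19* varied in LAC+ by 2.48 points (adjusted permutation p = 0.00216), from 34.6% ± 1.22 in segment 3 to 37.1% ± 2.19 in segment 8, but not in lac- (1.64 points, adjusted p = 0.357). *Peg3* (2.06 points, adjusted permutation p = 0.0569, and 1.30 points, 0.7) and *Inpp5f* (1.17 and 1.09 points) did not pass in either diet. The *Peg3* call in LAC+ rested on how the window was averaged: it passed under 6 of 8 alternatives, with adjusted permutation p down to 0.00506 in the additive fit. Of the 22 windows, 22.7% passed in LAC+ and 45.5% in lac-. LAC+ segments 1 and 4 were read on another lane than segments 3, 7 and 8, and in lac- the same split held except for 1 segment 3 library, so in both diets segment and lane cannot be told apart in part of the series. In lac- segment 1, *Snrpn* was at 46.1% and 48.9% on lane 5 and at 51.6% to 53.7% on lane 3. In lac- segment 4 it was at 46.6% and 48.6% on lane 5 and at 52.3% to 54.7% on lane 3.

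Single positions were tested in the P90 groups after the P60 result was seen. In each diet 3 members passed, 1 in *Peg3* and 2 in *Snrpn*, against 3.28% of CpG positions in LAC+ and 3.96% in lac-. All were among the 19 of P60. All 19 had a higher mean in segment 8 than in segment 3 in both diets, but this direction was not particular to them. In LAC+ the difference was 9.83 to 18.8 points at the 10 *Snrpn* positions and 1.67 to 6.46 at the other *Snrpn* positions. In lac- it was 10.0 to 17.5 points at the 10 and -2.51 to 5.24 at the others. The other *Peg3* positions went both ways in both diets. Averaged over the 10 *Snrpn* positions, LAC+ went from 62.3% ± 8.55 in segment 3 to 75.0% ± 2.38 in segment 8 and lac- from 58.8% ± 7.88 to 73.7% ± 1.86.

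**Figure D4:**
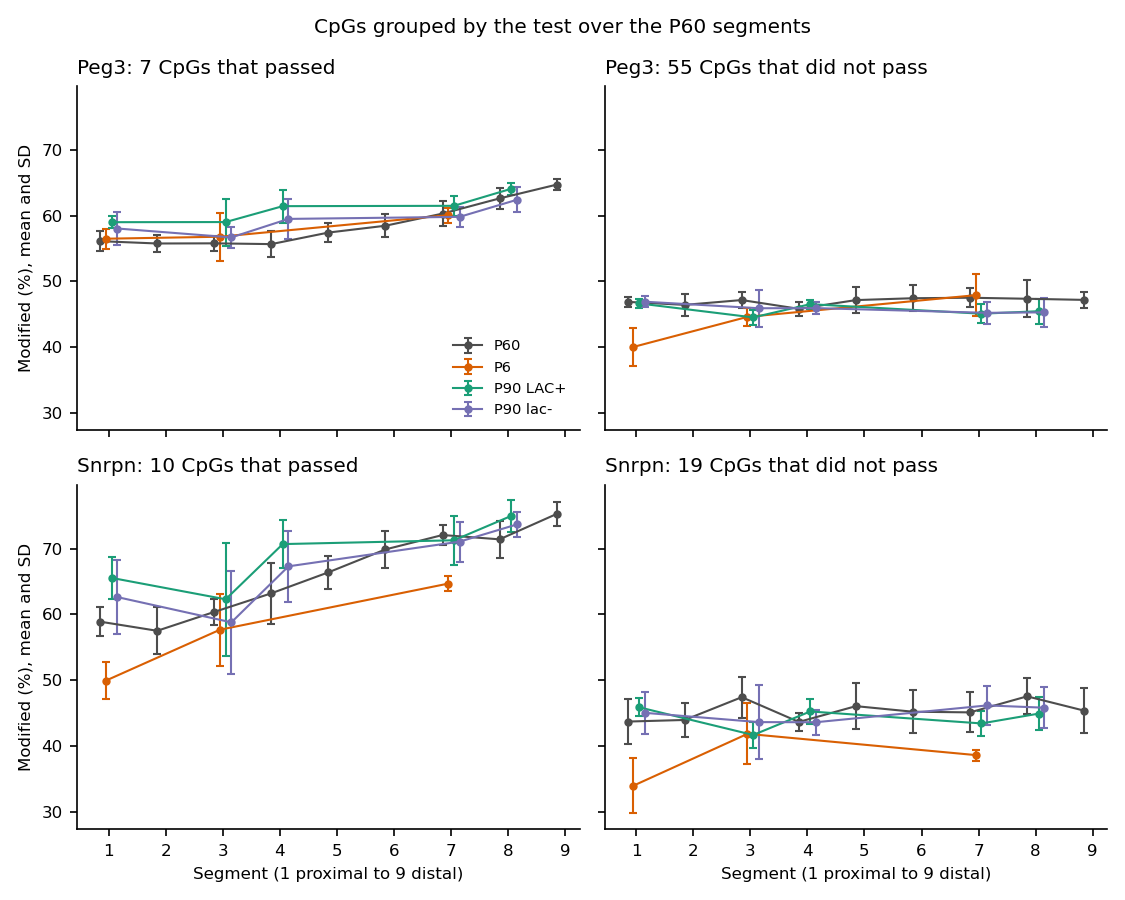
Mean and SD over samples of percent modified (y axis) by segment (x axis) for positions that passed the P60 segment test (left) and the others (right), in *Peg3* (top) and *Snrpn* (bottom), positions read in every sample. The *Snrpn* positions that passed go from 57.5% in segment 2 to 75.3% in segment 9 of P60, while the others stay between 43.6% and 47.5%. The positions were grouped by the test on these same P60 samples, so the P60 contrast is a description.

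Infant and adult mice were compared in segments 1, 3 and 7. Over the 3 segments together all 4 windows were lower at P6, by 6.96 points in *Snrpn*, 2.63 in *Peg3*, 1.98 in *Inpp5f* and 2.66 in *H19* (permutation tests with age permuted within segment, adjusted p = 3.14e-05, 0.0022, 0.0022 and 0.0179). The *Peg3* call was lost with each probe weighted equally (-1.22 points, adjusted permutation p = 0.0902), and the *H19* difference was -5.23 points with pooled reads (0.00044). Of all 22 windows, 77.3% passed and 19 were lower at P6, with a median difference of -2.64 points, so a fall of this size was common in the series. The *Snrpn* fall ranked 4 by size among the 22, *H19* ranked 12, *Peg3* 13 and *Inpp5f* 16. All P6 libraries were on lane 8, which held no P60 library, so age and lane cannot be told apart. The SD averaged over the 3 segments was also wider at P6 than at P60 in all 22 windows, although the P6 samples were deeper. This did not hold in every segment: in *Snrpn* segment 7 the SD was 0.872 at P6 and 2.19 at P60.

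*Snrpn* was lower at P6 in each segment. In segment 1 the P6 samples were at 37.6%, 38.4% and 42.4%, all below the 8 P60 samples at 44.5% to 51.7% (difference -9.49 points, exact permutation test, two-sided, p = 0.00606, adjusted p = 0.0103). In segment 7 they were at 47.1%, 48.9%, 47.2% and 47.1% against 50.5% to 57.6% at P60 (difference -6.80 points, adjusted exact permutation p = 0.00494). In segment 3, where the P6 samples were at 52.9%, 44.4% and 44.6%, the groups overlapped and the difference of -4.59 points did not pass (adjusted p = 0.0778, exact permutation test). Without the sample at 52.9% it was -7.38 points and passed (adjusted exact permutation p = 0.0376). Averaged over the 10 positions that varied along the gut, P6 segments 1, 3 and 7 were at 49.9% ± 2.83, 57.7% ± 5.45 and 64.7% ± 1.19, the same order as in the adult samples. The 19 other *Snrpn* positions were at 33.9% ± 4.22, 41.8% ± 4.66 and 38.6% ± 0.826. A rise over these segments at P6 was not particular to the 10 positions. The 55 *Peg3* positions that did not vary in adults were at 40.02% ± 2.91, 44.6% ± 1.32 and 47.9% ± 3.16. The *H19* window was at 31.6% ± 2.74, 36.8% ± 2.64 and 39.8% ± 5.37. The order of segments at P6 was not tested.

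*Peg3* and *H19* were lower at P6 in the duodenum. In segment 1, the *Peg3* samples were at 39.1%, 42.5% and 44.04% against 46.4% to 48.9% at P60, a difference of -6.04 points (adjusted exact permutation p = 0.0103). *H19* was at 34.7%, 29.4% and 30.8% against 37.8% to 41.0%, a difference of -6.99 points (adjusted exact permutation p = 0.0103). Neither pair of groups overlapped. *Inpp5f* was at 48.6%, 52.1% and 49.04% against 51.4% to 54.7%, and the groups overlapped (-2.94 points, adjusted exact permutation p = 0.0333). That call was lost without replicate 1 or 3 of P6 (-2.27 points, 0.153, and -2.51 points, 0.109, exact permutation tests). In segment 7 the differences were 0.32 points in *Peg3*, 1.39 in *H19* and -1.26 in *Inpp5f*, and none passed. The *H19* samples there were far apart, at 46.01%, 40.1%, 32.9% and 40.1%. Without the sample at 46.01% the *H19* difference was -0.69 points, and without the one at 32.9% it was 3.68 points and passed (adjusted exact permutation p = 0.04). In segment 3 none of the 4 windows passed, and 3 had an unadjusted exact permutation p under 0.05. Without replicate 1 of P6 segment 3 *H19* passed there (-3.90 points, adjusted exact permutation p = 0.0376). Of the 22 windows, 77.3% passed in segment 1, 31.8% in segment 3 and 40.9% in segment 7.

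Whether the age difference itself differed between segments was tested by permuting age within segment. Its SD over segments was 4.20 points in *H19* and 3.21 in *Peg3* (permutation p = 0.00742 and 0.0111, adjusted p = 0.0816 and 0.0818), 2.45 in *Snrpn* and 0.862 in *Inpp5f*, and none of the 4 passed, against 4.55% of all windows. The *H19* fall over the 3 segments did not pass without probes that have a CpG in an arm (-1.89 points, adjusted permutation p = 0.266) or without replicate 3 of P6 segment 7 (-1.89 points, 0.106).

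No single position passed for age. In the quasi-binomial test, 0 of 162, 0 of 162 and 0 of 166 members passed in segments 1, 3 and 7, where 97, 38 and 54 had an unadjusted p under 0.05 and limma passed none. Of all CpG positions, 1.21%, 1.14% and 1.98% passed. In segment 1, 127 of the 162 were lower at P6, with a median difference of -6.34 points. In segment 3 the median was -2.85 points and in segment 7 -0.376.

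The position with the lowest p for age in *Snrpn* was 60003227 in segment 7, with 75.9% ± 2.00 at P6 and 86.4% ± 1.84 at P60 (adjusted quasi-binomial p = 0.0619). In *H19* it was 142580375 on the plus strand in segment 1, at 33.2% ± 3.84 against 47.3% ± 1.90 (adjusted p = 0.246). In *Peg3* it was 6727308 on the plus strand, in an intron, which was higher at P6 in segment 7, at 58.5% ± 1.89 against 51.4% ± 1.13 (adjusted p = 0.174). In *Inpp5f* it was 128687846 in segment 1, 3.22 points lower at P6 (adjusted p = 1). Changes went both ways between probes of a window: 12 of 22 *Peg3* probes were lower at P6, the largest fall being 9.99 points and the largest rise 7.61, and 6 of 8 *Snrpn* probes were, with the largest fall 12.6 points.

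Milk with and without lactose was compared in segments 1, 3, 4, 7 and 8. The difference of LAC+ from lac- over the 5 segments was 0.013 points in *Peg3* (SE 0.360), 0.371 in *Snrpn* (SE 0.832), -0.0647 in *Inpp5f* (SE 0.230) and -0.399 in *H19* (SE 0.371). None of the 4 passed the permutation test with diet permuted within segment (adjusted p = 0.97, 0.656, 0.846 and 0.372), and none had an unadjusted p under 0.05, against 31.8% of the 22 windows that passed. With reads pooled over the window the *Peg3* difference was 0.63 points and passed (adjusted permutation p = 0.0414). Within lanes that held both diets (46 samples) the differences of *Peg3* and *Snrpn* were -0.337 and -0.886 points. In segments 3, 7 and 8 the LAC+ libraries were on lane 1, apart from segment 3 replicate 7 on lane 2. The lac- libraries there were mostly on lanes 6 and 7, with a single library of each segment on lane 1. Diet and lane can thus hardly be told apart in these segments. Files were merged from more than 1 run in 29 of 35 LAC+ and 12 of 32 lac- samples. Within single segments, 0 of 20 tests of these windows passed and 2 had an unadjusted exact permutation p under 0.05, both in *H19* (-1.61 points in segment 3 and 1.18 in segment 4). Over all windows 0% passed in segments 1, 3 and 7, 4.55% in segment 4 and 13.6% in segment 8. None of the 4 differed in its diet difference between segments, nor did any of the 22 windows (0%).

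No member passed for diet at a single position in any of the 5 segments, with either the quasi-binomial test or limma, nor did any of the CpG positions tested in the series (0%). Between 4 and 26 members a segment had an unadjusted p under 0.05. The lowest p were at 6732115 on the minus strand in *Peg3* segment 7 (59.7% ± 5.73 in LAC+, 50.2% ± 6.73 in lac-), 60003738 on the minus strand in *Snrpn* segment 8 (8.52 points higher in LAC+), 142581430 on the minus strand in *H19* segment 4 (71.4% ± 3.34 against 62.99% ± 4.33), and 128687846 in *Inpp5f* segment 3 (0.870 points lower in LAC+), each with an adjusted quasi-binomial p = 1. The *H19* position was among those with a median depth near 35 reads.

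The P90 lac- mice were set beside P60 mice in the same 5 segments. Age, milk and sequencing run go together in this comparison and cannot be told apart. Lane numbers 5, 6 and 7 occurred in both groups and the others in only 1 of them, but the same number need not mean the same run. Of the 32 lac- samples, 12 had files merged from more than 1 run, and no P60 sample had. The part of lane and run in these differences was not tested. *H19* was 2.06 points lower at P90, 36.5% ± 1.43 (n = 32) against 38.6% ± 1.32 (n = 40, permutation test within segment, p = 1e-05, the smallest it can give, adjusted p = 3.67e-05). *Inpp5f* was 0.706 points lower (adjusted permutation p = 0.0187), at 51.6% ± 1.10 against 52.3% ± 1.20, and *Peg3* 0.838 points lower (0.0467), at 47.4% ± 1.59 against 48.2% ± 1.67. *Snrpn* differed by 0.102 points (0.878). Of the 22 windows, 68.2% passed. With reads pooled over each window the *H19* difference was -0.544 points (adjusted permutation p = 0.133) and the *Peg3* difference -0.456 (0.133), and neither passed.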

How the data were processed

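Modified and unmodified read counts per cytosine were deposited by the authors for 148 samples. Per the submitters' processing notes, reads of the padlock libraries were trimmed with Trimmomatic 0.32 and aligned with Bismark to GRCm38/mm10. Lanes are the 8 lane numbers in the deposited names, and the same number need not mean the same run. The first line was broken in 147 files, and the cytosine it held was set to 0 reads there. Total cytosine reads per sample had a median of 41947922 in P60 (30513123 to 105887915), 78921224 in P6, 94488106 in LAC+ and 83801850 in lac-. At 29 LAC+ and 12 lac- samples the deposited file was merged from more than 1 run. Reads without molecular identifiers are not independent molecules, so depth gives counting error only.

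Percent modified was computed at positions with more than 30 reads. Window levels were compared over samples by exact permutation tests, or 100000 resamples, with Benjamini-Hochberg adjustment over the 22 windows (threshold 0.05), all two-sided except those of F statistics and of variances. Modified and unmodified counts of single cytosines were tested by quasi-binomial F tests with 1 dispersion each, Bonferroni over all cytosines tested (for diet, over CpGs with a mean of up to 90%) and a threshold of 0.01, where each group had at least 3 samples with enough reads. The alternatives were coverage minimums of 10 and 100 reads, pooled reads, an additive fit, replicate blocks, lanes, left-out samples, Benjamini-Hochberg adjustment and limma 3.58.1 (R 4.3.3) on log2 odds with a pseudocount of 0.5. Averages over probes, the removal of probes with a CpG in an arm, the averaging of P60 segment 1 replicates 1 and 4, and the tests of single positions along the P90 gut were chosen after seeing the data. In each window the text names the positions with the highest and lowest mean, the lowest p in each comparison and the widest strand difference. The members and lists were chosen with earlier results of these data known. The tests, checked on simulated data, were run in Python 3.11.15 (SciPy 1.17.1 with NumPy 2.4.6, tables in pandas 2.3.3), and figures were drawn with Matplotlib 3.10.9.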

Additional observations from a re-analysis of the deposited data

Results flagged for a closer look

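Among 80 groups of window levels of 4 to 10 samples, 3 held a sample far from the others by Dixon's test, which chance gives in about 1 in 20 groups. In *Snrpn*, P6 segment 7 replicate 2 was at 48.9% against 47.1% to 47.2% in the other samples, and LAC+ segment 3 replicate 7 was at 52.5% against 47.1% to 49.2%. In *Inpp5f*, P6 segment 7 replicate 4 was at 52.1% against 50.7% to 50.9%.

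Some cytosines outside CpGs, which no comparison of the report used, were read as modified far above the window means of 0.331% to 0.441%. In the *Peg3* window, a cytosine in CAC context at 6729910 on the plus strand averaged 15.4% (P60 18.4%, P6 13.4%, LAC+ 12.7%, lac- 12.3%). A cytosine in CAG context at 6729914, on the same probe, averaged 21.2% (P60 24.8%, P6 19.1%, LAC+ 18.1%, lac- 17.2%). Another at 6733248 on the minus strand averaged 8.67%. In *Snrpn*, a cytosine in CAG context at 60004428 on the plus strand averaged 8.44% (P60 10.2%, P6 6.91%, LAC+ 6.57%, lac- 7.09%). On the *Peg3* probe whose captured stretch starts at 6732598 on the plus strand, 31 of 40 cytosines outside CpGs were over 5%, with a median of 6.54%. Its level ranged from 0.608% to 33.9% among LAC+ samples and from 1.09% to 41.3% among lac- samples, and did not pass 4.02% in P60. The source of these reads was not tested.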

How the results depend on the processing

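Of 703 alternative values, 472 were for the comparisons as a whole, and 416 of these were classed as unchanged. For differences this meant the same direction and side of the threshold, and for ranges and SDs the same side. Counts of members were classed as unchanged if they moved little (14 to 22 against 19 along the P60 segments). Strand differences were if they moved by less than their SD. Of those 472, 8 changed sign, 1 of them past the threshold. A further 6 changed sign among the age tests within single segments. In each case below the cause was not tested. Differences are in percentage points.

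*Peg3* depended most on how its window was averaged. Its fall from P60 to P90 did not pass with more than 10 reads (-0.713), more than 100 (-0.663), pooled reads (-0.456), an additive fit (-0.444) or the mean over probes (-0.101). Its LAC+ gradient passed with more than 10 reads (2.45), pooled reads (1.83), an additive fit (2.62), positions between 20% and 80% (2.05) and the mean over probes (2.55). Its P60 range passed with pooled reads (2.22), an additive fit (2.62) and the mean over probes (3.15), as did segment 9 against 3 (1.93, 1.80 and 2.40). With the mean over probes its age difference did not pass (-1.22) and the SD of that difference over segments did (2.74), as it did with pooled reads (2.83). Its diet difference passed with pooled reads (0.63) and was -0.337 within lanes and -0.357 within merged and unmerged files. Its age difference in segment 7 was -0.762 with more than 100 reads.

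*Snrpn* at P90 against P60 was -0.00295 with more than 10 reads, -0.155 with an additive fit and -1.56 without merged files, where it passed (adjusted permutation p = 0.043). Its diet difference was -0.886 within lanes and -0.579 within merged and unmerged files. Segment 9 against 3 did not pass with more than 10 reads (2.98) or within lanes 5, 6 and 7 (3.88, 3.78 and 2.83), where so few samples could not pass, nor did the range within lanes 6 and 7 (7.74 and 7.96). *Inpp5f* segment 9 against 3 was 0.421 in lane 6. *H19* did not pass at P90 against P60 with pooled reads (-0.544), along LAC+ with an additive fit (1.97), or for age without probes that have a CpG in an arm (-1.89), and its P60 range passed with more than 100 reads (2.51). Its age difference in segment 7 was -0.772 with more than 100 reads and -1.92 with pooled reads. Within segments, 1 diet test passed with an additive fit, with positions between 20% and 80% and with the mean over probes. With Benjamini-Hochberg adjustment 48, 4 and 16 members passed for age in segments 1, 3 and 7, and 1 for diet in segment 8.

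With each P6 sample left out in turn, the age difference over the 3 segments ranged from -3.35 to -1.89 in *H19*, which did not pass without replicate 3 of segment 7, and passed every time in the other windows. In segment 7 it ranged from -0.694 to 3.68 in *H19* and from -0.878 to 1.13 in *Peg3*. The members that passed for age ranged from 0 to 1 in segments 1 and 7.

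Sample numbers did not pair the P60 segments: same-numbered samples correlated by 0.0478 on average, and 38.2% of pairs were over 0.1 (0.0961 and 46.8% for the runs of file numbers). With a replicate block by number, age did not pass in *Peg3* (-2.29), *Inpp5f* (-1.73) or *H19* (-2.65), nor *Peg3* at P90 against P60 (-0.792) or *Snrpn* along lac- (6.57), while *Peg3* (2.06) and *Inpp5f* (1.17) passed along LAC+. With a replicate block by the runs of file numbers, *Snrpn* segment 9 against 3 did not pass (3.80). Under the block 18 positions passed over P60 segments. Lane could not enter the age tests, since the P6 lane held no P60 sample.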
